A study of Mus musculus with 15 samples.

Results

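Regulatory T cells (Tregs) of the thymus were set against Tregs of the spleen in control mice. The comparison uses 6 of the 15 bulk RNA-seq libraries of the series, chosen by their labels as the control libraries of these tissues, and every gene of the count table except the spike-in sequences. The tissues gave 3 libraries each, from adult C57BL/6 mice that were littermate controls of a line named RelB-dDC (called wt or ctr in the labels). All groups carried a Foxp3 reporter, through which Foxp3-positive cells were sorted. Thymus and spleen Tregs of RelB-dDC mice (dDC in the labels; 2 and 3 libraries) serve as another set of samples for the same tissue contrast, and the 4 peritoneal libraries (2 from dDC mice and 2 from controls) enter only the estimate of the spread. The labels spell out neither what the name of the line stands for nor whether each library is a separate animal, so every p below measures only the spread between these libraries, which may be technical.

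Tregs restrain immune responses and depend on the transcription factor Foxp3. Many arise in the thymus, where developing T cells that receive strong T cell receptor signals, costimulation through receptors of the TNF receptor family and interleukin 2 (IL-2, which acts through the kinase-activated factor STAT5) turn on Foxp3. The Tregs then leave the thymus through the blood and settle in lymphoid organs such as the spleen. An adult thymus also holds older Tregs that have returned from the periphery, so sorting by Foxp3 alone does not separate newly made from returned cells.

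The 6 libraries held between 17213541 and 24332044 counts in genes, and 18423 genes had enough counts to be tested. Levels are given as CPM, counts divided by the library total and scaled by TMM factors, in the order of libraries 1, 2 and 3 of each tissue. CPM is not divided by gene length, so levels are compared between libraries and not between genes. Mitochondrially encoded genes took 3.72 to 3.80% of the counts in thymus libraries and 2.90 to 3.34% in spleen libraries. The first principal component of the 6 libraries held 45.4% of the variance and set the tissues apart. Correlations of log2 CPM were 0.890 to 0.896 within thymus, 0.889 to 0.898 within spleen and 0.865 to 0.882 between the tissues.

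The genes that define Tregs were present in all 6 libraries. Foxp3 had 222, 275 and 327 CPM in thymus and 208, 179 and 229 CPM in spleen libraries. Its ranges overlapped, and its log2 fold change of 0.42 (SE 0.17) did not pass the test (edgeR adjusted p = 0.432). Il2ra, the high-affinity chain of the IL-2 receptor, had 851, 825 and 1076 CPM in thymus and 667, 712 and 578 CPM in spleen libraries (adjusted p = 0.328), and Ctla4, an inhibitory receptor, had 462, 467 and 486 CPM in thymus and 307, 432 and 303 CPM in spleen libraries (adjusted p = 0.315). Ikzf2, for the factor Helios, had 1113, 1197 and 1354 CPM in thymus and 1005, 997 and 855 CPM in spleen libraries (adjusted p = 0.297). These 3 genes lay above every spleen library in each thymus library, yet none passed the test. Ranges without overlap were a property of 14.8% of all tested genes. Cd4 had 508, 346 and 694 CPM in thymus and 947, 936 and 645 CPM in spleen libraries, with overlapping ranges (adjusted p = 0.531).

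Thymus Tregs carried more RNA of costimulatory receptors (Tnfrsf4, Tnfrsf18 and Tnfrsf25), of genes of IL-2 signalling (Stat5a and Cish) and of the Treg genes Ikzf4 and Ecm1. Thymus libraries held less RNA of Cst7, Cd9, Ly6c1, Dtx1 and Gpr183. Spleen libraries also held more RNA of B cell and macrophage markers, and the part of those cells in these differences was not tested. In all, 111 genes passed an edgeR adjusted p of 0.05 (0.603% of the tested genes), 29 higher (0.157%) and 82 lower (0.445%) in thymus. Of the 29 higher genes, 25 had an average of 10 CPM or more in both tissues. Of the 82 lower genes, 19 were immunoglobulin genes and 14 were markers of other cell types. Of the others, 27 had a mean under 10 CPM in thymus and 22 had an average of 10 CPM or more in both tissues. The ranges of thymus and spleen did not overlap for 2728 genes (14.8%), and 1804 (9.79%) had an unadjusted p under 0.05.

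**Figure D1:**
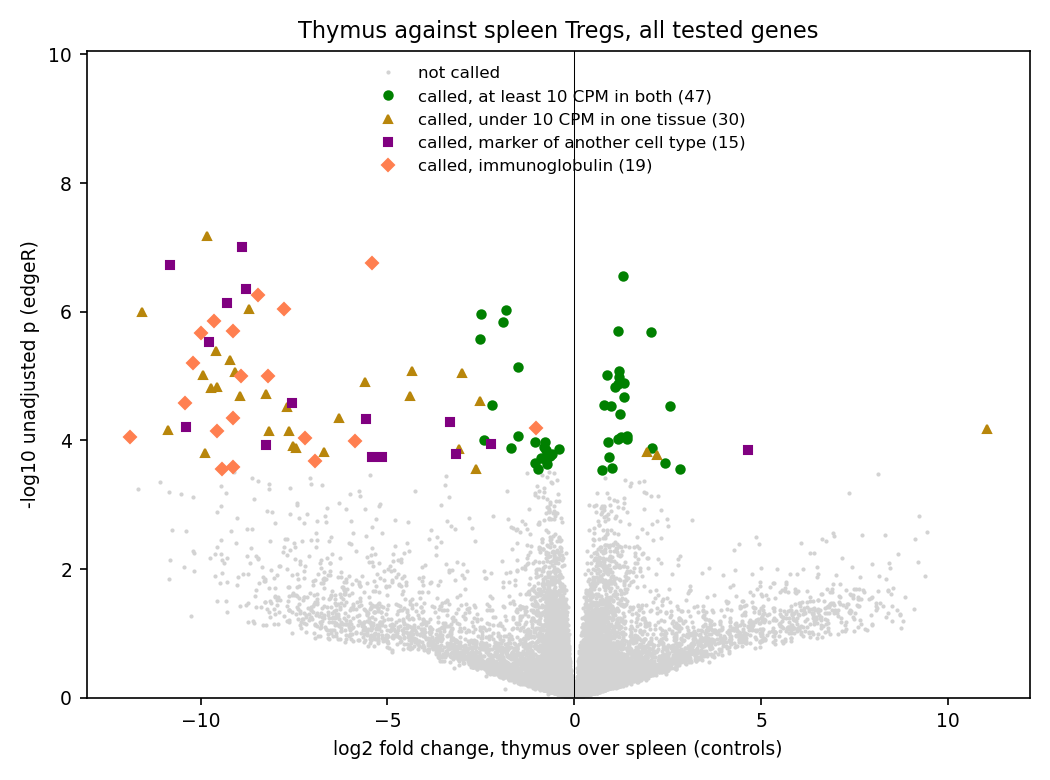
Log2 fold change of thymus over spleen Tregs in controls (horizontal) against the -log10 of the unadjusted edgeR p (vertical) for each of the 18423 tested genes. Coloured symbols mark the 111 genes past the threshold by class. Outside the immunoglobulin and marker classes, 47 had an average of 10 CPM or more in both tissues. These 47 lie at log2 fold changes of -2.52 to 2.82. The immunoglobulin genes and markers of other cells lie mostly far to the left.

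Which calls a single library decided was tested by leaving out each of the 6 libraries in turn. The count of 111 became 59, 62 and 50 without thymus libraries 1, 2 and 3, and 84, 73 and 74 without spleen libraries 1, 2 and 3. The 29 higher genes became 17, 17 and 11 without thymus libraries 1, 2 and 3, and 19, 17 and 17 without spleen libraries 1, 2 and 3. In all 6 of these fits 41 of the 111 calls were kept, 10 higher and 31 lower. The 10 higher genes are Tnfrsf4, Tnfrsf18, Tnfrsf25, Stat5a, Ecm1, Irf7, Sdc4, Igf2r, Abcg1 and Znrf1. Fitting the 6 libraries alone gave 55 calls, of which 47 were among the 111, and DESeq2 called 588, which included all 111.

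Among receptors of the TNF receptor family, 3 costimulatory receptors were higher in thymus Tregs. Tnfrsf4, for OX40 (ENSMUSG00000029075, chr4:156013843-156016612 in mm10), had 1501, 1672 and 1717 CPM in thymus and 724, 642 and 785 CPM in spleen libraries. The lowest thymus library had 1.91 times the level of the highest spleen library, and the means were 1629.9 ± 114 CPM in thymus and 717 ± 71.9 CPM in spleen (SD, n = 3 each; log2 fold change 1.18, SE 0.14, adjusted p = 0.00207). Tnfrsf18, for GITR (ENSMUSG00000041954, chr4:156026164-156028895), had 711, 797 and 798 CPM in thymus and 415, 354 and 484 CPM in spleen libraries. All thymus libraries were above all spleen libraries (log2 fold change 0.88, SE 0.12, adjusted p = 0.00559). Tnfrsf25, for DR3, the receptor of TL1A (ENSMUSG00000024793, chr4:152115934-152120119), had 242, 229 and 266 CPM in thymus and 105, 119.9 and 123 CPM in spleen libraries, again without overlap (log2 fold change 1.08, SE 0.15, adjusted p = 0.00703).

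Of the 16 tested members of the TNF receptor list, 3 rose and 1 fell, against 0.157% and 0.445% of all tested genes. The one that fell, Tnfrsf13c, encodes the BAFF receptor of B cells and had 0.0547, 0.0545 and 0 CPM in thymus and 8.56, 46.9 and 14.7 CPM in spleen libraries. The list's median log2 fold change was 0.14, against -0.002 over all tested genes, and 9 of the 16 were positive, against 49.4% of all genes. The list's median depended on single libraries and was -0.010 without thymus library 3, -0.071 without spleen library 1 and 0.34 without spleen library 3. Fas, a death receptor, had 218, 135 and 184 CPM in thymus and 109.6, 126 and 114 CPM in spleen libraries (adjusted p = 0.241). Tnfrsf1a, the main receptor of TNF, lay the other way with 46.2, 16.8 and 24.5 CPM in thymus and 49, 64.9 and 61.6 CPM in spleen libraries (adjusted p = 0.292). Of the exon bases of Tnfrsf18, 27.2% overlap an antisense gene, Gm16008, whose reads cannot be told apart where strand is not marked. Gm16008 itself had 8.81, 9.49 and 16.8 CPM in thymus and 8.5, 7.45 and 4.33 CPM in spleen libraries. The call on Tnfrsf18 was lost in a fit to the 6 libraries alone at an adjusted p of 0.0686. Tnfrsf13c kept its call in all 6 leave-outs and was lost with limma voom at an adjusted p of 0.107.

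Stat5a and Cish, genes of IL-2 signalling, were higher as well. Stat5a, one of the pair of STAT5 factors that carry the IL-2 signal (ENSMUSG00000004043, chr11:100859351-100885169), had 168, 173 and 150.5 CPM in thymus and 62.7, 75.4 and 76.7 CPM in spleen libraries. No spleen library reached the level of any thymus library, and the means were 164 ± 11.7 CPM in thymus and 71.6 ± 7.76 CPM in spleen (SD, n = 3 each; log2 fold change 1.19, SE 0.16, adjusted p = 0.00559). Cish, a feedback inhibitor that STAT5 induces (ENSMUSG00000032578, chr9:107296026-107302784), had 340.2, 228 and 314 CPM in thymus and 141, 107 and 146 CPM in spleen libraries (log2 fold change 1.16, SE 0.2, adjusted p = 0.0248). Its ranges did not overlap either, but its call was less steady than that of Stat5a. The call on Cish was lost without thymus library 1 at an adjusted p of 0.0959, without thymus library 3 at 0.108, without spleen library 1 at 0.067, without spleen library 2 at 0.0961, without spleen library 3 at 0.0603 and in a fit to the 6 libraries alone at 0.0886. Of the exon bases of Cish, 11.5% overlap other genes.

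Of the 19 tested members of the IL-2 receptor and STAT5 list, 2 rose and 0 fell, with 15 positive and a median log2 fold change of 0.42 (0.27 without thymus library 3). Among all tested genes 0.157% rose, 0.445% fell and 49.4% were positive. The other STAT5 gene, Stat5b, had 203, 269 and 226 CPM in thymus and 128, 167 and 128 CPM in spleen libraries and did not pass (log2 fold change 0.72, adjusted p = 0.105). Pim1, a kinase gene that STAT5 induces, had 641, 624 and 969 CPM in thymus and 393, 489 and 433 CPM in spleen libraries (adjusted p = 0.158). Socs3, a feedback inhibitor of cytokine signals, was the other way with 16.8, 18.4 and 22.5 CPM in thymus and 37.2, 28.5 and 58.3 CPM in spleen libraries (adjusted p = 0.267). The ranges of these 3 genes did not overlap between tissues, a property that 14.8% of all tested genes shared.

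Beside these genes, the 250 bases before the start of each gene were searched for the STAT5 motif TTCNNNGAA on both strands. The motifs searched and the sequences shown were chosen after promoters and results had been read. Of 32851 promoter windows in the RefSeq table (GRCm38.p6, the assembly behind mm10), 2306 (7.02%) held it. Of the 29 higher genes 23 had a window there, and 3 of the 23 held the motif, in Tnfrsf18, Tnfrsf25 and Il18r1. Of the 82 lower genes 45 had a window, and 1 held it, in H2-DMb2. Called genes are counted by gene and the background by window (32851 windows of 27025 genes), so the shares are in unlike units. The windows of Tnfrsf18 and Il18r1 are shown because both genes rose. They lie at chr4:156026072-156026321 and chr1:40465756-40466005, both on the plus strand, and are written 5′ to 3′ with the motif in capitals. The motif ends 90 bases before the start of Tnfrsf18, and its matches end 210 and 143 bases before the start of Il18r1. Starts are those of RefSeq. As the count table draws them, Tnfrsf18 begins within this window and Il18r1 before its window, so the matches shown lie after those starts. A match is no evidence of binding, and the window of Cish held none.
Tnfrsf18: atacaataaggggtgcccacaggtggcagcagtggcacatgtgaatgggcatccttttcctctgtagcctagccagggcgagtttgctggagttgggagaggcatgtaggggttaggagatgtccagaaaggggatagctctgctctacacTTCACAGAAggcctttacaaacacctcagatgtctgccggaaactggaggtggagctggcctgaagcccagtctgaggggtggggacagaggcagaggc
Il18r1: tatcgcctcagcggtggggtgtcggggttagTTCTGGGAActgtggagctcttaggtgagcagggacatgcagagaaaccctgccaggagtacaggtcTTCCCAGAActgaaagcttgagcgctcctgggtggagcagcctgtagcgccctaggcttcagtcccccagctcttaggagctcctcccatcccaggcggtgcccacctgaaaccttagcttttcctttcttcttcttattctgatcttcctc

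Il18r1, a chain of the interleukin 18 receptor (ENSMUSG00000026070), had 182, 136 and 128 CPM in thymus and 68.1, 55.3 and 42.6 CPM in spleen libraries, without overlap (log2 fold change 1.43, SE 0.24, adjusted p = 0.0241). The call on Il18r1 was lost without thymus library 1 at an adjusted p of 0.0853, without thymus library 2 at 0.0542, without thymus library 3 at 0.0531, without spleen library 2 at 0.0899, without spleen library 3 at 0.0921 and in a fit to the 6 libraries alone at 0.0843. It was the one member called among 25 tested genes of the tissue Treg list, of which 17 were positive with a median log2 fold change of 0.47 (0.27 without thymus library 1). Over all tested genes 0.603% were called and 49.4% were positive. Gata3, a factor of tissue Tregs and of type 2 helper cells, had 589.6, 594 and 558 CPM in thymus and 296, 276 and 407 CPM in spleen libraries (adjusted p = 0.209). Rora, a nuclear receptor gene, had 113, 101 and 132 CPM in thymus and 82.4, 54 and 60.0 CPM in spleen libraries (adjusted p = 0.13). Both were higher in every thymus library than in any spleen library and did not pass. Ranges were separate for 14.8% of all tested genes. The decoy receptor gene Il1r2, which binds interleukin 1 without signalling, had 252, 180.2 and 174 CPM in thymus and 53, 104 and 123 CPM in spleen libraries (log2 fold change 1.11, adjusted p = 0.267).

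**Figure D2:**
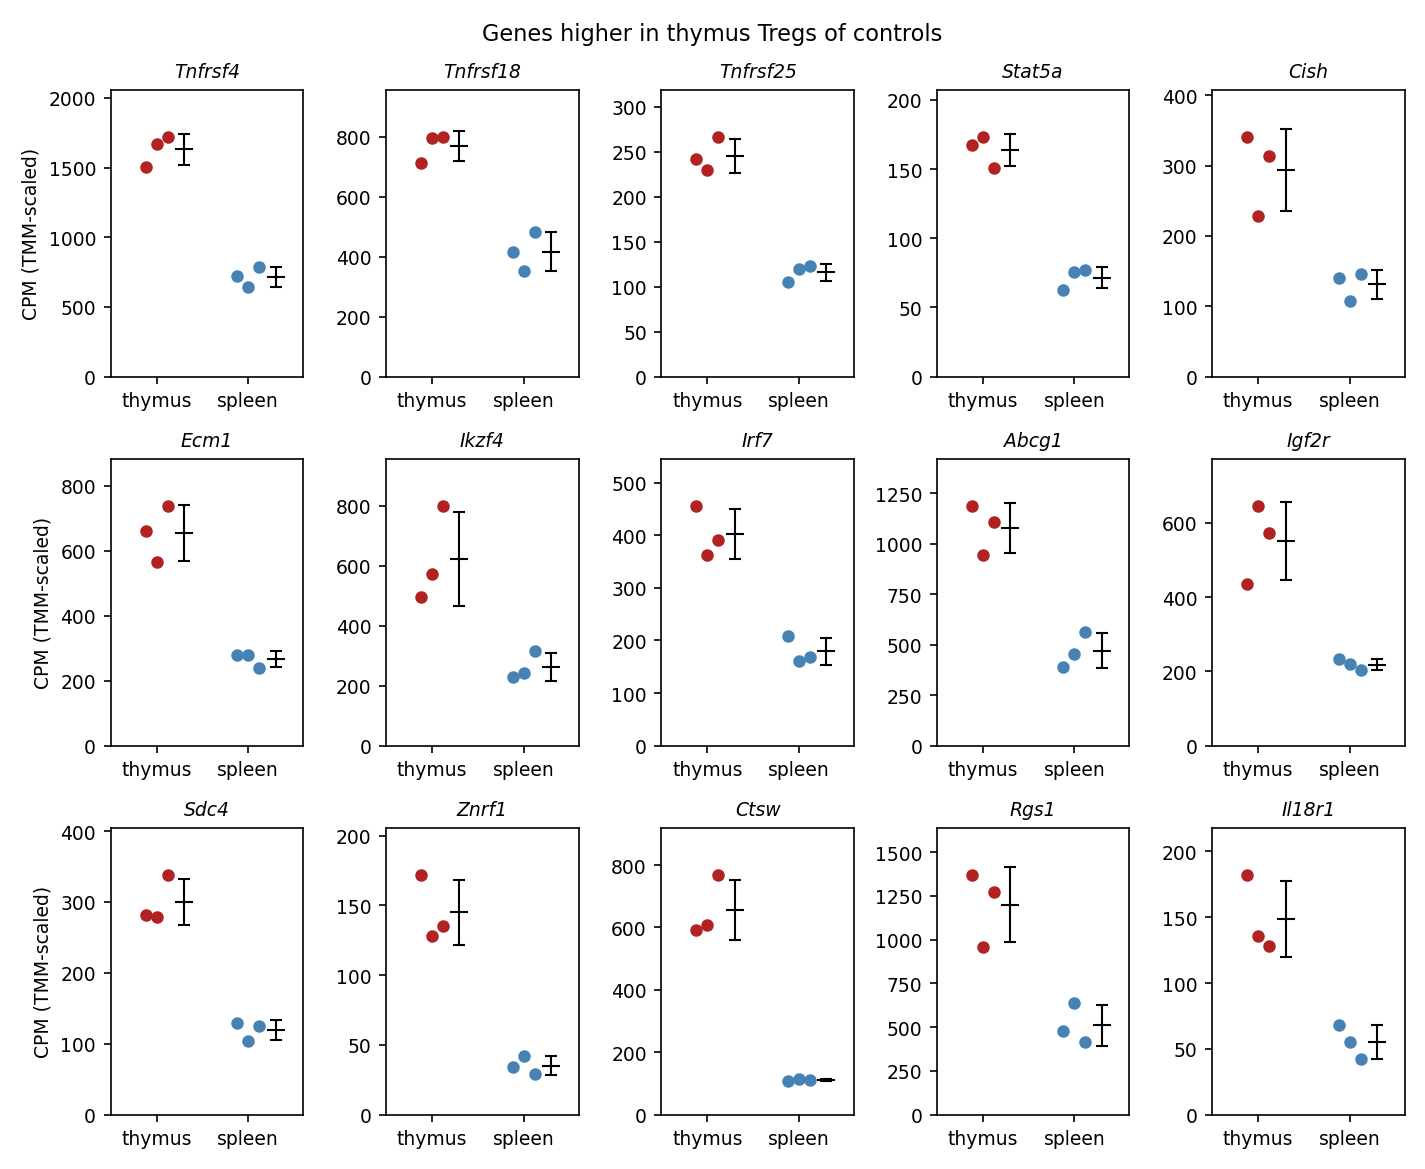
TMM-scaled CPM (vertical, from 0) of 15 genes that were higher in thymus Tregs, with thymus libraries 1 to 3 on the left and spleen libraries 1 to 3 on the right of each panel; dashes and bars are mean ± SD (n = 3). For each gene the lowest thymus library lies above the highest spleen library.

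Among genes that mark Treg identity, 4 of 22 tested members rose and 0 fell: Tnfrsf4, Tnfrsf18, Ikzf4 and Ecm1. The median log2 fold change of the list was 0.52, and 20 of the 22 were positive. Over all tested genes 0.157% rose, 0.445% fell and 49.4% were positive. Ecm1, for a secreted matrix protein (ENSMUSG00000028108, chr3:95734147-95739569), had 659.8, 567 and 736 CPM in thymus and 280.1, 279 and 238 CPM in spleen libraries. It had the smallest adjusted p of the higher genes, with means of 654 ± 85 CPM in thymus and 266 ± 23.8 CPM in spleen (SD, n = 3 each; log2 fold change 1.3, SE 0.12, adjusted p = 0.00103). Ikzf4, for Eos, an Ikaros family factor that works with Foxp3 (ENSMUSG00000002578), had 497, 572 and 797 CPM in thymus and 229, 243 and 316 CPM in spleen libraries (log2 fold change 1.24, SE 0.21, adjusted p = 0.0241). The tissues did not overlap for Ikzf4, but single libraries decided the call. The call on Ikzf4 was lost without thymus library 2 at an adjusted p of 0.0553, without thymus library 3 at 0.102, without spleen library 1 at 0.11, without spleen library 2 at 0.0982 and in a fit to the 6 libraries alone at 0.0903. Nrp1, a surface receptor of thymus-derived Tregs, had 1008, 945 and 1041 CPM in thymus and 785, 681 and 792 CPM in spleen libraries and did not pass (log2 fold change 0.41, adjusted p = 0.101). Of the 2 negative members, Izumo1r, for folate receptor 4, had 708, 659 and 833 CPM in thymus and 1090.2, 1063 and 1512 CPM in spleen libraries (adjusted p = 0.103).

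Other genes that kept their higher call with each library left out are of varied function. Irf7, the interferon regulatory factor that amplifies type I interferon responses (ENSMUSG00000025498), had 455, 362 and 392 CPM in thymus and 209, 160.3 and 168 CPM in spleen libraries (log2 fold change 1.17, SE 0.16, adjusted p = 0.00655). It was the one call among 32 tested interferon-stimulated genes, of which 22 were positive with a median log2 fold change of 0.23 (0.40 without spleen library 1). Of all tested genes 0.603% were called and 49.4% were positive. Usp18, which dampens interferon receptor signals, had 441, 322 and 380.2 CPM in thymus and 207, 246 and 148 CPM in spleen libraries (adjusted p = 0.252). Ifit3, an antiviral effector gene, had 99.4, 71.2 and 72.6 CPM in thymus and 35.9, 45.2 and 23 CPM in spleen libraries (adjusted p = 0.13), and the guanylate-binding protein gene Gbp3 lay the other way with 136, 73.3 and 107 CPM in thymus and 157, 187 and 175 CPM in spleen libraries (adjusted p = 0.237). The list was mixed in direction, with 10 of 32 members negative. An interferon response motif, GAAANNGAA, searched in the promoter windows described above on both strands, was in 2342 of 32851 windows (7.13%). It was in 2 of the 23 higher genes with a window (Apol9b and Tnfrsf4) and in 5 of the 45 lower genes with one.

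Abcg1, a transporter that moves cholesterol out of cells (ENSMUSG00000024030, chr17:31057698-31115777), had 1186, 946 and 1107 CPM in thymus and 392, 454 and 563 CPM in spleen libraries (log2 fold change 1.2, SE 0.16, adjusted p = 0.00563). Igf2r, the receptor that takes up insulin-like growth factor 2 and sorts lysosomal enzymes (ENSMUSG00000023830), had 436, 645 and 572 CPM in thymus and 232, 219 and 203 CPM in spleen libraries (log2 fold change 1.34, SE 0.2, adjusted p = 0.00894). Sdc4, for the proteoglycan syndecan 4 (ENSMUSG00000017009), had 282, 279 and 337 CPM in thymus and 129, 104 and 126 CPM in spleen libraries (log2 fold change 1.33, SE 0.19, adjusted p = 0.00651). Each of these 3 genes was at least 1.68 times as high in the lowest thymus library as in the highest spleen library. Znrf1, a ubiquitin ligase gene (ENSMUSG00000033545), had 172, 128 and 135 CPM in thymus and 34.2, 42.3 and 28.9 CPM in spleen libraries (log2 fold change 2.04, SE 0.24, adjusted p = 0.00207). Of its exon bases 32% overlap other genes, among them Ldhd, which had 8.43, 10.4 and 12.8 CPM in thymus and 4.22, 15.1 and 5.6 CPM in spleen libraries.

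For Ctsw, Lad1, Pde4d and Skil the call was lost in leave-outs, while the log2 fold changes over the 6 leave-outs were 2.44 to 2.64 for Ctsw, 2.54 to 3.37 for Lad1, 1.94 to 2.4 for Pde4d and 1.26 to 1.64 for Skil. Ctsw, for cathepsin W, a protease of cytotoxic lymphocytes (ENSMUSG00000024910), had 592, 608 and 767 CPM in thymus and 107, 115 and 109.9 CPM in spleen libraries. The lowest thymus library had 5.15 times the level of the highest spleen library (log2 fold change 2.57, SE 0.39, adjusted p = 0.0105). The call on Ctsw was lost without thymus library 3 at an adjusted p of 0.053, without spleen library 1 at 0.0553, without spleen library 2 at 0.054 and without spleen library 3 at 0.0584. Lad1, for the anchoring filament protein ladinin 1, had 83.6, 141 and 107 CPM in thymus and 8.73, 25.6 and 12.5 CPM in spleen libraries (log2 fold change 2.82, SE 0.55, adjusted p = 0.047). The call on Lad1 was lost without thymus library 1 at an adjusted p of 0.0812, without thymus library 2 at 0.137, without thymus library 3 at 0.131, without spleen library 1 at 0.16, without spleen library 3 at 0.183 and in a fit to the 6 libraries alone at 0.0779. Pde4d, a phosphodiesterase gene that breaks down cyclic AMP, had 68.3, 67.6 and 65.4 CPM in thymus and 22, 12.9 and 12.5 CPM in spleen libraries (log2 fold change 2.09, SE 0.37, adjusted p = 0.0294). The call on Pde4d was lost without thymus library 1 at an adjusted p of 0.0843, without thymus library 2 at 0.0811, without thymus library 3 at 0.102, without spleen library 2 at 0.123 and without spleen library 3 at 0.128. Skil, an inhibitor of TGF-beta signalling, had 558, 629 and 794 CPM in thymus and 237, 187 and 314 CPM in spleen libraries (log2 fold change 1.42, SE 0.25, adjusted p = 0.0249). The call on Skil was lost without thymus library 2 at an adjusted p of 0.0663, without thymus library 3 at 0.113, without spleen library 1 at 0.103, without spleen library 2 at 0.096 and in a fit to the 6 libraries alone at 0.0686.

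Tff1, for a trefoil peptide of mucosal surfaces (ENSMUSG00000024032, chr17:31161396-31165053), was detected in thymus Tregs only among these 6 libraries, at 16, 7.8 and 17.9 CPM, against 0 in each spleen library. Set against a floor of 3 counts per library, it was at least 89.5-fold higher in thymus (adjusted p = 0.0202). Of its exon bases 46.2% overlap another gene, Gm15318. The call on Tff1 was lost without thymus library 1 at an adjusted p of 0.0804, without thymus library 2 at 0.0532 and without thymus library 3 at 0.102.

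The other higher genes had varied roles. Apol9b, an interferon-induced apolipoprotein gene with a near-identical copy in Apol9a, had 122, 92.4 and 124 CPM in thymus and 22.5, 9.93 and 30.1 CPM in spleen libraries (log2 fold change 2.43, SE 0.45, adjusted p = 0.0404). Ifngr1, the ligand-binding chain of the interferon gamma receptor, had 763, 752 and 838 CPM in thymus and 428, 326 and 414 CPM in spleen libraries (log2 fold change 1.01, SE 0.2, adjusted p = 0.0458). Vim, for the intermediate filament vimentin, had 596, 571 and 552 CPM in thymus and 248, 289 and 369 CPM in spleen libraries (log2 fold change 0.92, SE 0.17, adjusted p = 0.0347). Tissues did not overlap for these 3 genes. The log2 fold changes of the rest were 2.21 for Lmna (nuclear lamin A), 1.96 for Zfyve28, 0.99 for the cyclin gene Ccnl2, 0.9 for the kinase gene Map4k2, 0.79 for the phosphatase regulator Ppp1r16b and 0.74 for the kinase gene Ikbke. Calls on Apol9b, Lmna, Zfyve28, Ifngr1 and Ikbke were lost without any one of the 6 libraries, at adjusted p between 0.0542 and 0.176. The calls on Vim and Map4k2 held in 1 leave-out and were lost in the other 5: for Vim without spleen library 3 (0.107 to 0.137 without the others) and for Map4k2 without spleen library 1 (0.0552 to 0.113 without the others), all as adjusted p. In a fit to the 6 libraries alone they were lost at adjusted p between 0.0652 and 0.092. The call on Ccnl2 was lost without spleen library 2 at an adjusted p of 0.057, without spleen library 3 at 0.0591 and in a fit to the 6 libraries alone at 0.106. The call on Ppp1r16b was lost without thymus library 3 at an adjusted p of 0.064 and in a fit to the 6 libraries alone at 0.0787.

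Among the 26 tested immediate-early and heat shock genes, 1 rose, 0 fell and 23 were positive, with a median log2 fold change of 0.64. That median was 0.23 without thymus library 1. Of all tested genes 0.157% rose, 0.445% fell and 49.4% were positive. The member that rose, Rgs1, a brake on chemokine receptor signals (ENSMUSG00000026358), had 1367, 960.4 and 1274 CPM in thymus and 478, 639 and 415 CPM in spleen libraries (log2 fold change 1.23, SE 0.19, adjusted p = 0.0136). The call on Rgs1 was lost without thymus library 1 at an adjusted p of 0.0628, without thymus library 3 at 0.0699, without spleen library 1 at 0.0632, without spleen library 3 at 0.0603 and in a fit to the 6 libraries alone at 0.0843. Fosl2, a member of the AP-1 factors, had 58.2, 21.6 and 28 CPM in thymus and 9.02, 8.74 and 7.74 CPM in spleen libraries (adjusted p = 0.139). The ranges of Rgs1 and Fosl2 were both separate between the tissues, as were those of 14.8% of all tested genes.

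The 27 tested genes of thymic selection and T cell receptor signal strength held no call, where 0.603% of all tested genes were called. Positive values were seen for 19 of the 27, against 49.4% of all tested genes, with a median log2 fold change of 0.29. Nr4a1, which receptor signals induce within minutes, had 178, 315 and 294 CPM in thymus and 90.1, 158 and 117 CPM in spleen libraries (log2 fold change 1.11, adjusted p = 0.498). Cd5, whose surface level follows receptor signal strength, had 650.2, 644 and 701 CPM in thymus and 479, 588 and 563 CPM in spleen libraries (adjusted p = 0.527). Dusp5, a phosphatase gene of the ERK pathway, had 46.4, 43.8 and 72.6 CPM in thymus and 20.7, 19.3 and 17.9 CPM in spleen libraries (log2 fold change 1.49, adjusted p = 0.0675). Nfatc1, a calcium-regulated factor, was the other way with 187, 118 and 95 CPM in thymus and 247, 247 and 333 CPM in spleen libraries (adjusted p = 0.08). Ranges were separate for these 4 genes, a property that 14.8% of all tested genes shared.

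Among genes of developing thymocytes, Rag1 lay near the threshold. Rag1, which cuts receptor genes for rearrangement in immature T cells (ENSMUSG00000061311), had 6.08, 7.69 and 6.72 CPM in thymus libraries, against 0, 0.0564 and 0 CPM in spleen libraries. The ratio of thymus to spleen was 403 (exact 95% interval 71.9 to 15967, counting error only), and the test missed the threshold (adjusted p = 0.0533). Myb, a factor of immature cells, had 42.5, 27.6 and 45 CPM in thymus and 13.9, 20.8 and 15.9 CPM in spleen libraries (adjusted p = 0.277), and Satb1, a chromatin organiser of thymocytes, had 213, 259.6 and 203 CPM in thymus and 120.3, 149 and 128 CPM in spleen libraries (adjusted p = 0.472). Kit, the stem cell factor receptor, had 61, 76 and 73 CPM in thymus and 3.42, 0.113 and 6.19 CPM in spleen libraries (log2 fold change 4.42, adjusted p = 0.206). All 4 genes were higher in each thymus library than in any spleen library, while 14.8% of all tested genes had separate ranges. Of the 26 tested members of the thymocyte list 17 were positive, against 49.4% of all tested genes. Of these members 0 passed, against 0.603% of all tested genes, and their median was 0.21 (0.59 without spleen library 2). Cd8a, which immature thymocytes carry with Cd4, had 0, 5.94 and 7.64 CPM in thymus and 0.114, 18.4 and 0 CPM in spleen libraries.

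Genes read in studies of Tregs that return to the thymus did not separate in 1 direction. Of 14 tested members 7 were positive and 0 passed, against 49.4% and 0.603% of all tested genes. Their median log2 fold change was -0.07 (-0.17 to 0.017 in leave-outs). Ccr6, a chemokine receptor gene, had 249, 151 and 207 CPM in thymus and 122, 107 and 56.4 CPM in spleen libraries (log2 fold change 1.09, adjusted p = 0.125). Itgae, for the integrin CD103, had 296, 301 and 217 CPM in thymus and 79.3, 83 and 92.8 CPM in spleen libraries (log2 fold change 1.68, adjusted p = 0.183). Nt5e, for the ectoenzyme CD73, had 435, 315 and 532 CPM in thymus and 574, 412 and 675 CPM in spleen libraries, with overlap (adjusted p = 0.585). The chemokine receptor gene Cxcr4 had 76.1, 38.1 and 38 CPM in thymus and 16.2, 21.3 and 28.6 CPM in spleen libraries (adjusted p = 0.214). Of these 4 genes 3 lay higher in thymus without overlap, and Nt5e lay lower on average. Among all tested genes 14.8% had separate ranges.

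**Figure D3:**
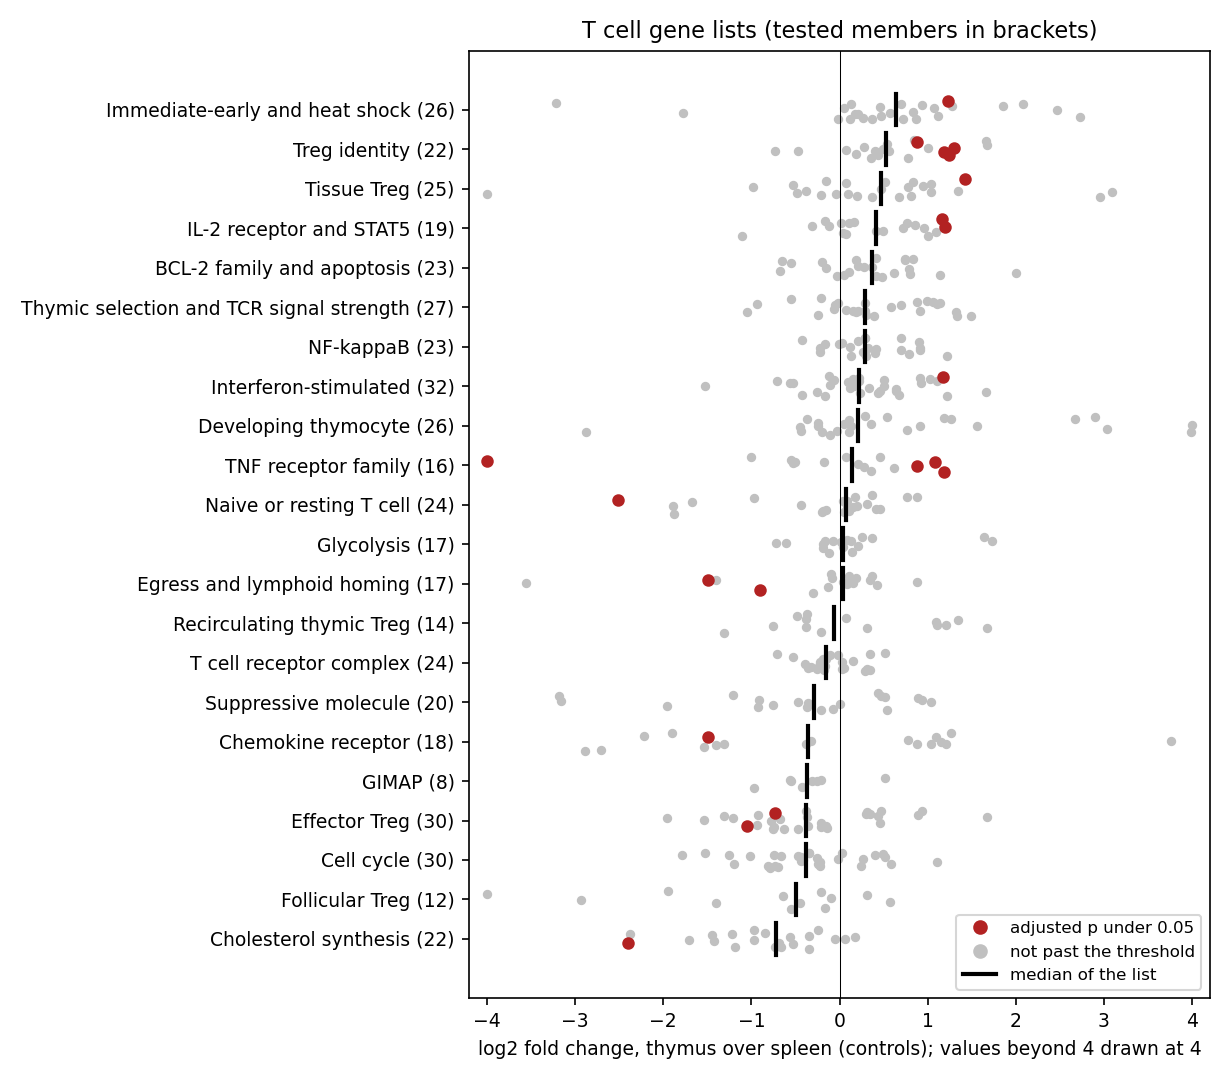
Log2 fold change of thymus over spleen Tregs in controls (horizontal; values beyond 4 drawn at 4) for the tested members of 22 T cell gene lists (vertical, ordered by median, number tested in brackets). Red points passed an adjusted p of 0.05 and black bars are medians, which run from -0.72 for cholesterol synthesis to 0.64 for immediate-early and heat shock genes (0.23 without thymus library 1).

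RNA of several other cell types was lower in thymus Tregs too. The 15 B cell markers summed to 292, 325 and 201 CPM in thymus and 1489.7, 4339 and 3028 CPM in spleen libraries, and 0 of the 15 were at 0 throughout a tissue. Erythroid markers summed to 173, 428 and 10.1 CPM in thymus and 8415, 3007 and 4297 CPM in spleen libraries. Macrophage and monocyte markers summed to 33.3, 34.5 and 6.49 CPM in thymus and 167, 291 and 158 CPM in spleen libraries, with Cd14, C1qa, Marco and Ccl6 at 0 in all 3 thymus libraries. All 3 sums were higher in each spleen library than in any thymus library. Dendritic cell markers summed to 115 to 190 CPM in thymus and 376 to 852 CPM in spleen, with Siglech at 0 in all 3 thymus and Ccl22 at 0 in all 3 spleen libraries. Most of that spleen sum came from MHC class II genes that B cells share, H2-Aa (151, 418 and 340 CPM) and H2-Ab1 (83.9, 320 and 168 CPM). The list was mixed in direction, with 8 of 13 tested members negative and 5 positive. Xcr1 was higher in thymus, with 4.43, 7.36 and 11.8 CPM against 0.0571, 1.64 and 0.0421 CPM in spleen libraries. Plasma cell markers (113 to 145 CPM in thymus, 161 to 187 CPM in spleen) and NK cell markers (from 68.8 CPM in thymus, from 102 CPM in spleen) differed less in sum, again without overlap. Nkg7 gave most of the NK sum of thymus and lay the other way, with 68.5, 86.9 and 67.6 CPM in thymus and 39.5, 62.3 and 56.2 CPM in spleen libraries. Of the tested members, 8 of 9 NK cell markers were negative, and 4 of 7 plasma cell markers were positive. Granulocyte markers lay the other way, with 61.6 to 89.9 CPM in thymus and 6.32 to 27.3 CPM in spleen, and Kit, which some immature T cells also express, gave most of the thymus sum. Thymic epithelium markers summed to 76.2 to 121 CPM in thymus and 70.7 to 74.8 CPM in spleen. Sums overlapped between the tissues for CD8 T cell, stromal and endothelial, and gamma delta and innate-like T cell markers. In bulk RNA, fewer cells of a type and less RNA per cell cannot be told apart.

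**Figure D4:**
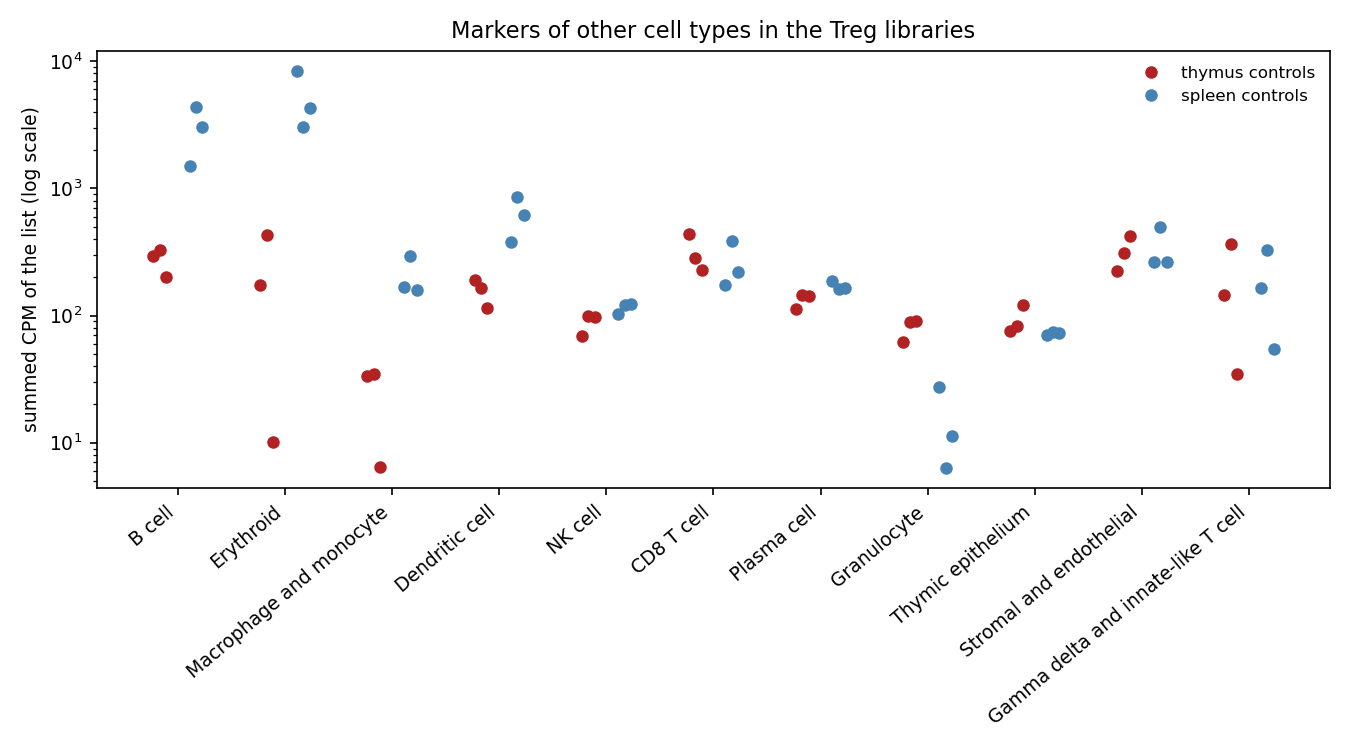
Summed TMM-scaled CPM (vertical, log scale) of 11 marker lists of other cell types in the 3 thymus libraries (left of each pair) and 3 spleen libraries (right). B cell sums lie between 201 and 325 CPM in thymus and between 1489.7 and 4339 CPM in spleen, and erythroid sums lie between 10.1 and 428 CPM in thymus and between 3007 and 8415 CPM in spleen.

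Of the 15 B cell markers 10 fell and 0 rose, against 0.445% and 0.157% of all tested genes. Cd74, the invariant chain of MHC class II, had 239, 239 and 131 CPM in thymus and 1032, 2945 and 2097 CPM in spleen libraries (log2 fold change -3.32, SE 0.54, adjusted p = 0.017), and Cd79b, a chain of the B cell receptor complex, had 35, 47.3 and 36.7 CPM in thymus and 97.1, 233 and 229.7 CPM in spleen libraries (adjusted p = 0.027). Outside the list, Ly86, a partner of the B cell Toll-like receptor RP105, had 0 CPM in each thymus library, against 11.6, 18.1 and 30.8 CPM in spleen libraries, and was at least 121-fold higher in spleen (adjusted p = 0.00154). Siglecg, an inhibitory lectin of B cells, had 0, 0.109 and 0 CPM in thymus and 25.5, 36.8 and 56.3 CPM in spleen libraries (adjusted p = 8.76e-04). Ly86 and Siglecg kept their calls with each library left out. The call on Cd79b was lost without thymus library 1 at an adjusted p of 0.12, without thymus library 2 at 0.0779, without thymus library 3 at 0.136, without spleen library 2 at 0.0899, without spleen library 3 at 0.088, with limma voom at 0.158 and in a fit to the 6 libraries alone at 0.0787. The call on Cd74 was lost without thymus library 1 at an adjusted p of 0.0686, without thymus library 2 at 0.0673, without thymus library 3 at 0.102, without spleen library 2 at 0.052, with limma voom at 0.417 and with no filter on low counts at 0.0659.

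Immunoglobulin RNA also differed, but not evenly between genes. All immunoglobulin genes summed to 1427, 1136 and 1425 CPM in thymus and 3408, 4326 and 4088 CPM in spleen libraries. Igkc, the kappa light chain, had 11.2, 16.1 and 11.4 CPM in thymus and 448, 685 and 513 CPM in spleen libraries (log2 fold change -5.41, adjusted p = 8.76e-04). Ighm, the mu heavy chain, had 1391, 1055 and 1372 CPM in thymus and 2253, 2648 and 2916 CPM in spleen libraries (log2 fold change -1.03, adjusted p = 0.0202). The call on Ighm passed without spleen library 1 (0.0282) and was lost without any of the other 5 libraries, at adjusted p between 0.0578 and 0.0834. Ighm thus held nearly all the immunoglobulin RNA of thymus Tregs, where Igkc was low. Both were singled out after their values were seen. The B cell marker sums given above stand beside these values.

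H2-Eb1 and H2-Aa, MHC class II genes of B cells, dendritic cells and macrophages, fell. H2-Eb1 (ENSMUSG00000060586, chr17:34305877-34316199) had 9.2, 11.1 and 5.29 CPM in thymus and 76, 269 and 194 CPM in spleen libraries (log2 fold change -4.39, SE 0.64, adjusted p = 0.00879), and H2-Aa (ENSMUSG00000036594, chr17:34282744-34287827) had 4.38, 19 and 2.41 CPM in thymus and 151, 418 and 339.9 CPM in spleen libraries (log2 fold change -5.13, SE 0.96, adjusted p = 0.0347). The call on H2-Eb1 was lost without thymus library 1 at an adjusted p of 0.0535, without thymus library 3 at 0.0631 and with limma voom at 0.369. The call on H2-Aa was lost without thymus library 1 at an adjusted p of 0.152, without thymus library 3 at 0.139, without spleen library 2 at 0.0899, without spleen library 3 at 0.0821, with limma voom at 0.417, with no filter on low counts at 0.138 and in a fit to the 6 libraries alone at 0.0886. Promoters of this family are known for a Y box, searched as CTGATTGG on both strands of the same windows and found in 1258 of 32851 (3.83%). It was in 3 of the 45 lower genes with a window, H2-Aa, H2-Eb1 and Fcer2a, and in 0 of the 23 higher genes with one. The windows of H2-Aa (chr17:34287824-34288073, minus strand) and H2-Eb1 (chr17:34305617-34305866, plus strand) are shown 5′ to 3′ with the Y box in capitals, because both genes fell and carry it at a like distance, 43 and 54 bases before the start. No match shown overlaps another of the motifs searched.
H2-Aa: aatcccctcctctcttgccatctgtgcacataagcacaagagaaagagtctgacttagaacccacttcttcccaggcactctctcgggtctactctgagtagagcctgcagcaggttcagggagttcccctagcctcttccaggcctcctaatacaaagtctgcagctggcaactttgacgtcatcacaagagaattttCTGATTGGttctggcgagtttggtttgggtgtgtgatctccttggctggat
H2-Eb1: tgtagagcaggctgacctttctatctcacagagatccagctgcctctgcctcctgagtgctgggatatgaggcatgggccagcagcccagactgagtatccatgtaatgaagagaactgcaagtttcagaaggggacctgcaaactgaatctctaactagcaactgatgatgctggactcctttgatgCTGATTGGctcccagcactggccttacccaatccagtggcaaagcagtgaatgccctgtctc

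Outside the immunoglobulin genes and markers of other cells, 22 lower genes had an average of 10 CPM or more in both tissues. For these, thymus Tregs still gave a clear level. Cst7, for cystatin F, an inhibitor of cathepsins in cytotoxic and myeloid cells (ENSMUSG00000068129, chr2:150570415-150578944), had 42, 53.1 and 44.9 CPM in thymus and 168, 122 and 209.8 CPM in spleen libraries (log2 fold change -1.84, SE 0.2, adjusted p = 0.00154). Cd9, a tetraspanin gene (ENSMUSG00000030342, chr6:125460266-125494791), had 29, 26.9 and 36.1 CPM in thymus and 80.3, 117 and 147 CPM in spleen libraries (log2 fold change -1.91, SE 0.21, adjusted p = 0.00179). Dtx1, a regulator of Notch signals and of T cell anergy (ENSMUSG00000029603), had 12.5, 13.2 and 9.94 CPM in thymus and 46.5, 76.1 and 81.7 CPM in spleen libraries (log2 fold change -2.52, SE 0.3, adjusted p = 0.00247). No thymus library reached any spleen library for these 3 genes, and each kept its call with every library left out. The call on Cd9 was lost in a fit to the 6 libraries alone at an adjusted p of 0.0532. B cells and myeloid cells express some of them, their summed markers were higher in spleen as given above, and the part of those cells in these values was not tested.

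Ly6c1, a surface gene of resting and memory T cells in the mouse (ENSMUSG00000079018, chr15:75044018-75048830), had 19.1, 17.6 and 21.4 CPM in thymus and 96, 112 and 123 CPM in spleen libraries (log2 fold change -2.51, SE 0.27, adjusted p = 0.00156). It has a near-identical copy, Ly6c2, so the split of reads between the copies is uncertain. It was the one call among 24 tested naive and resting T cell genes, of which 15 were positive. Of all tested genes 0.603% were called and 49.4% were positive. Ccr7, the receptor that guides T cells into lymph nodes, had 591, 743 and 689 CPM in thymus and 257, 439 and 406 CPM in spleen libraries (log2 fold change 0.88, adjusted p = 0.169). The list had a median log2 fold change of 0.07 (0.0069 to 0.090 in leave-outs). Art2b, an ADP-ribosyltransferase gene of mature mouse T cells with a close relative in Art2a, had 19, 24.6 and 19 CPM in thymus and 99.2, 91.3 and 98 CPM in spleen libraries (log2 fold change -2.2, SE 0.33, adjusted p = 0.0105). The call on Art2b was lost without thymus library 1 at an adjusted p of 0.0628 and without thymus library 3 at 0.0747.

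Among genes of egress and lymphoid homing, 2 of 17 fell and 0 rose, against 0.445% and 0.157% of all tested genes. Gpr183, for EBI2, an oxysterol receptor that positions B and T cells in the spleen (ENSMUSG00000051212), had 91.5, 109 and 112 CPM in thymus and 269, 218 and 394 CPM in spleen libraries (log2 fold change -1.5, SE 0.2, adjusted p = 0.00528). The call on Gpr183 was lost in a fit to the 6 libraries alone at an adjusted p of 0.0686. Klf3, a repressor related to Klf2, had 111, 128 and 102 CPM in thymus and 265, 199 and 172 CPM in spleen libraries (log2 fold change -0.9, SE 0.17, adjusted p = 0.0352). The call on Klf3 was lost without thymus library 1 at an adjusted p of 0.131, without thymus library 2 at 0.0681, without thymus library 3 at 0.167, without spleen library 1 at 0.114, without spleen library 2 at 0.0844, with limma voom at 0.0641, in a fit to the 6 libraries alone at 0.143 and without the peritoneal libraries at 0.086. The central egress genes did not separate: S1pr1, the receptor through which T cells leave the thymus, had 480.4, 626 and 666 CPM in thymus and 538, 611 and 523 CPM in spleen libraries (adjusted p = 0.982). Its regulator Klf2 had 70.7, 60.8 and 59.6 CPM in thymus and 46.7, 67.2 and 57.4 CPM in spleen libraries (adjusted p = 0.957). Ranges of both overlapped between the tissues. Cxcr5, the receptor of B cell follicles, had 72.3, 46.9 and 60.7 CPM in thymus and 152, 144 and 178 CPM in spleen libraries, without overlap (log2 fold change -1.4, adjusted p = 0.13). Summed B cell markers, given above, were higher in spleen libraries, and the part of B cells in the values of Gpr183 and Cxcr5 was not tested.

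Among 30 tested effector Treg genes 2 fell and 0 rose, 21 were negative, and the median log2 fold change was -0.37 (-0.25 without spleen library 3). Over all tested genes 0.445% fell, 0.157% rose and 49.4% were positive. Maf, a factor of effector and interleukin 10 producing T cells (ENSMUSG00000055435), had 266, 171 and 193 CPM in thymus and 465, 302 and 532 CPM in spleen libraries (log2 fold change -1.04, SE 0.2, adjusted p = 0.0404). The call on Maf was lost without thymus library 2 at an adjusted p of 0.156, without thymus library 3 at 0.179, without spleen library 1 at 0.137, without spleen library 3 at 0.147, in a fit to the 6 libraries alone at 0.184 and without the peritoneal libraries at 0.086. S100a11, for a calcium-binding protein, had 121, 91.2 and 109 CPM in thymus and 175, 148 and 211 CPM in spleen libraries (log2 fold change -0.73, SE 0.14, adjusted p = 0.0414). The call on S100a11 was lost without thymus library 1 at an adjusted p of 0.0628, without thymus library 2 at 0.155, without thymus library 3 at 0.144, without spleen library 1 at 0.114, without spleen library 3 at 0.141, with limma voom at 0.0643, in a fit to the 6 libraries alone at 0.197 and without the peritoneal libraries at 0.0904. Cxcr3, the receptor of interferon-induced chemokines, had 138, 33.3 and 75.1 CPM in thymus and 202, 158 and 249 CPM in spleen libraries (adjusted p = 0.284). Spleen libraries were above thymus libraries without overlap for all 3 genes, and 14.8% of all tested genes had separate ranges. Entpd1, for the ectoenzyme CD39 of the suppressive molecule list, had 31.9, 36.2 and 27.9 CPM in thymus and 49.5, 58.5 and 53.3 CPM in spleen libraries (adjusted p = 0.471). No gene of the suppressive molecule list passed (20 tested, 12 negative, median -0.28), nor of the follicular Treg list (12 tested, 10 negative, median -0.50). In leave-outs the medians were -0.12 without thymus library 2 and -0.14 without spleen library 3 for the suppressive list, and -0.30 without thymus library 1, -0.25 without thymus library 2 and -0.83 without thymus library 3 for the follicular list.

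The other genes called lower at an average of 10 CPM or more, a class set after values were seen, had varied roles. Snx2 and Snx5, sorting nexins of the retromer, had 215, 231 and 191 CPM and 54.2, 44.4 and 52.5 CPM in thymus and 341, 327 and 415 CPM and 84.6, 131 and 96.9 CPM in spleen libraries. Their log2 fold changes were -0.77 (adjusted p = 0.0298) and -1.05 (adjusted p = 0.0256). Ctsd, for the lysosomal protease cathepsin D, had 401, 347 and 368 CPM in thymus and 499, 538 and 637 CPM in spleen libraries (log2 fold change -0.59, SE 0.11, adjusted p = 0.0322), and Srgn, for a granule proteoglycan, had 709.7, 602 and 594 CPM in thymus and 1007, 845 and 1159 CPM in spleen libraries (log2 fold change -0.66, SE 0.12, adjusted p = 0.0347). All 4 genes were separate between the tissues, with smaller changes than Cst7 or Ly6c1. The log2 fold changes of the rest were -1.7 for Fpgt, -1.51 for the deubiquitinase gene Usp28, -0.97 for the deubiquitinase gene Atxn3, -0.79 for the arginine synthesis gene Ass1, -0.78 for Slc35c2, -0.73 for the DNA damage checkpoint gene Rad9a and -0.42 for the actin nucleation gene Actr2. Reads of Ass1 may be shared with Gm5424, a related sequence that was also called lower. Calls on Fpgt, Rad9a, Snx2, Slc35c2 and Atxn3 were lost without any one of the 6 libraries, at adjusted p between 0.0513 and 0.172. The other 6 calls held in 1 leave-out and were lost in the other 5: for Snx5 without spleen library 1 (0.0597 to 0.113 without the others), for Ctsd without spleen library 1 (0.0651 to 0.136 without the others), for Srgn without spleen library 2 (0.0546 to 0.159 without the others), for Usp28 without spleen library 3 (0.0605 to 0.122 without the others), for Ass1 without thymus library 3 (0.0724 to 0.107 without the others) and for Actr2 without spleen library 2 (0.0821 to 0.122 without the others), all as adjusted p. In a fit to the 6 libraries alone they were lost at adjusted p between 0.0963 and 0.143. With no filter on low counts the calls on Ctsd, Ass1 and Actr2 were lost at 0.0566, 0.0566 and 0.11, without the peritoneal libraries those on Snx5, Ctsd and Srgn at 0.056, 0.0841 and 0.0595, and with limma voom that on Usp28 at 0.0572. The higher B cell and macrophage sums of spleen stand beside these calls too, and their part was not tested.

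**Figure D5:**
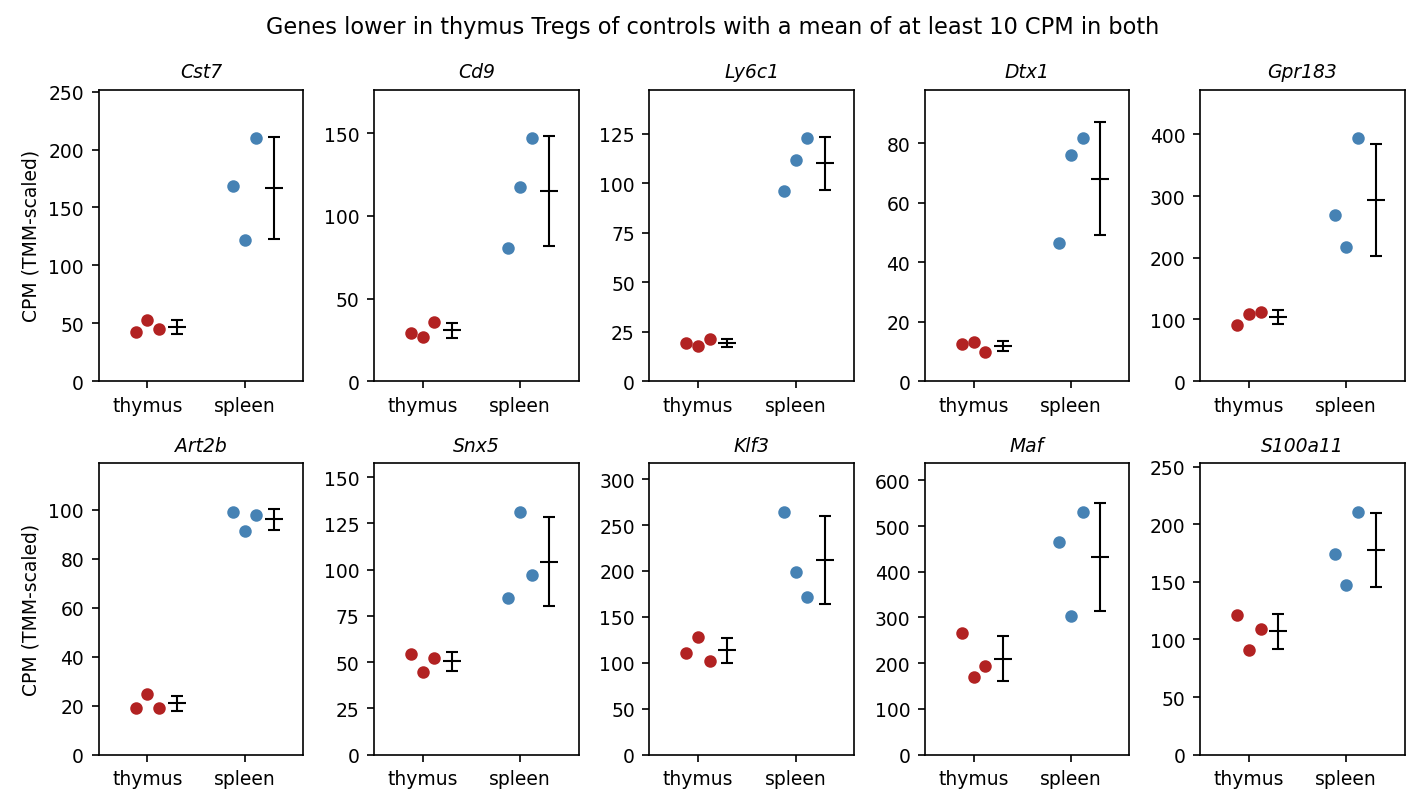
TMM-scaled CPM (vertical, from 0) of 10 genes that were lower in thymus Tregs and had an average of 10 CPM or more in both tissues, with thymus libraries 1 to 3 on the left and spleen libraries 1 to 3 on the right of each panel; dashes and bars are mean ± SD (n = 3). The highest thymus library lies below the lowest spleen library for each gene.

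Among genes of cholesterol supply, most differences were negative. Of 22 tested members 20 were negative, 1 fell and 0 rose, with a median log2 fold change of -0.72. For comparison, 49.4% of all tested genes were positive, 0.445% fell and 0.157% rose. Sqle, an enzyme of cholesterol synthesis, had 2.9, 1.36 and 14 CPM in thymus and 34.1, 30.2 and 30.9 CPM in spleen libraries (adjusted p = 0.336). Srebf2, the master regulator of the pathway, had 26.5, 36.9 and 32.1 CPM in thymus and 85.4, 54.5 and 47.5 CPM in spleen libraries (adjusted p = 0.326), and Msmo1, another enzyme gene, had 68.6, 29.2 and 44.8 CPM in thymus and 100.4, 63.1 and 117 CPM in spleen libraries, with overlap (adjusted p = 0.392). Scd1, a fatty acid desaturase gene outside the list (ENSMUSG00000037071), fell, with 0.328, 0.654 and 1.15 CPM in thymus and 25.2, 51.9 and 26.3 CPM in spleen libraries (log2 fold change -5.59, SE 0.78, adjusted p = 0.00647). The call on Scd1 was lost with limma voom at an adjusted p of 0.0623. A sterol response motif, TCACCCCAC, searched on both strands, was in 163 of the 32851 windows (0.496%) and in 0 windows of called genes. Erythroid and B cell marker sums moved the same way, and their part was not tested.

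Most remaining lists held no call, where 0.603% of all tested genes were called and 49.4% were positive. The GIMAP family, GTPases of lymphocyte survival, was negative in 7 of 8 members with a median of -0.37. Its member nearest the threshold, Gimap3, had 742, 687 and 808 CPM in thymus and 989, 1025 and 1259 CPM in spleen libraries (log2 fold change -0.55, adjusted p = 0.0521). Of 30 tested cell cycle genes 22 were negative (median -0.38), and Rrm2, a DNA synthesis gene, had 26.7, 30.6 and 25.3 CPM in thymus and 52.1, 28.6 and 56.6 CPM in spleen libraries, with overlap (adjusted p = 0.488). NF-kappaB genes were positive in 18 of 23 (median 0.29), and Rel, for the c-Rel subunit that Foxp3 induction needs, had 247, 249 and 289 CPM in thymus and 165, 145 and 105 CPM in spleen libraries (log2 fold change 0.92, adjusted p = 0.115). Genes of the BCL-2 family and apoptosis were positive in 17 of 23 (median 0.37), and Mcl1, a survival gene, had 396, 317 and 366 CPM in thymus and 232, 186 and 206 CPM in spleen libraries (adjusted p = 0.102). T cell receptor complex genes were positive in 9 of 24 (median -0.16) and glycolysis genes in 10 of 17 (median 0.04). The chemokine receptor list (8 of 18 positive, median -0.35) held the 1 call already given for Gpr183. Several of these medians moved with single libraries. That of the BCL-2 family was 0.097 without thymus library 2 and 0.21 without spleen library 3. That of the chemokine receptors was -0.64 without thymus library 2, -0.23 without thymus library 3 and -0.056 without spleen library 1. Cell cycle genes had a median of -0.23 without thymus library 3, T cell receptor complex genes had -0.050 without spleen library 3, and glycolysis genes had -0.059 to 0.075 over the leave-outs.

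The same tissue contrast in dDC mice shares no library with the control contrast, though both sit in 1 fit. There, 33 genes passed (0.179%), and 28 of them were called in the same direction in controls, which is 84.8% of the dDC calls and 25.2% of the control calls. All 29 higher and 78 of the 82 lower control genes had the same sign in dDC mice, against 57.7% of all tested genes, and 7 and 21 of them passed there. Tnfrsf4 had 1793 and 1638 CPM in thymus dDC and 748, 853 and 781 CPM in spleen dDC libraries (log2 fold change 1.11, adjusted p = 0.0118). Tnfrsf18 had 929 and 890.5 CPM in thymus dDC and 481, 457 and 447 CPM in spleen dDC libraries (log2 fold change 0.98, adjusted p = 0.0118). The tissues were again separate for both receptors. Ecm1 (log2 fold change 1), Irf7 (1.31), Ctsw (3.03) and Tff1 (11.49) also passed as higher, and Dtx1 (-2.71) and Cst7 (-1.53) as lower.

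Other control calls did not pass in dDC mice. Stat5a had 122 and 141 CPM in thymus dDC and 73.4, 94 and 77.8 CPM in spleen dDC libraries (log2 fold change 0.68, adjusted p = 0.258), and Cd9 had 55.8 and 71.4 CPM in thymus dDC and 96.7, 94 and 101 CPM in spleen dDC libraries (log2 fold change -0.61, adjusted p = 0.597). Ly6c1 had 19.4 and 25.7 CPM in thymus dDC and 44.8, 33.9 and 43.3 CPM in spleen dDC libraries (log2 fold change -0.85, adjusted p = 0.542). These values are not evidence that the tissue difference differs by genotype. The test of that difference gave 0 genes with edgeR (0%), with 932 at an unadjusted p under 0.05 (5.06%), 0 with limma voom and 36 with DESeq2. The dDC count of 33 became 4 without thymus dDC library 1 and 81 without thymus dDC library 2, and 19, 14 and 15 without spleen dDC libraries 1, 2 and 3, and the count of 0 became 21 without thymus dDC library 2.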

How the data were processed

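Bulk RNA-seq of sorted Foxp3-positive T cells was analysed from the deposited table of counts, whole numbers of reads per gene. Per the labels' protocols, cDNA was primed with poly-dT, amplified and sheared; strand was not marked and no molecular identifiers are named, so intervals and floors account for counting error alone. Reads were handled with bcl2fastq 2.19.1, GSNAP and featureCounts 1.6.0 on the build mm10, per the submitters' processing notes. Its strand setting is not given in the sources used here; libraries were matched to columns through their labels. The table holds 45798 features; 92 spike-in features (at most 6 reads in a library) were left out, and 45143 of 45706 gene identifiers (98.8%) matched a symbol in GENCODE M21.

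With edgeR 4.0.16 (R 4.3.3), genes passing filterByExpr in the 6 groups of tissue and genotype were kept (18423 genes, 99.93% of counts), scaled with TMM factors and fitted in 1 robust quasi-likelihood model of all 15 libraries with 9 degrees of freedom left for the spread. Two-sided p-values were adjusted by Benjamini-Hochberg over all tested genes at a threshold of 0.05; an adjusted p with no tool named is edgeR's. Biological variation between libraries (median coefficient) was 0.55, and 0.18 above 100 CPM. A fold against a tissue at 0 is a lower bound set against 3 counts per library. The fit was tested on simulated data.

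Genes were named by rule. Among calls with separate ranges and at least 10 CPM in the higher group, the 15 largest changes in each direction were taken. Left out were receptor segments, mitochondrial and ribosomal genes, Xist, Tsix, Y-linked genes, model names and markers of other cells. Further calls meeting these conditions were also taken: all higher ones, and, chosen after values were seen, lower ones of at least 10 CPM in thymus. For each of 22 program lists up to 5 called members and 3 others with the smallest p were taken, for each of 11 marker lists the 3 highest, and 18 genes always. Genes such as Igkc and Ighm are named outside it, after their values were seen, and some genes the rule picks are not reported here. Lists were read by counts and medians, with no set test. The comparison, its gene lists and rules were chosen with earlier results of these data known. Alternatives were DESeq2 1.42.0, limma 3.58.1 (voom), RLE size factors, no filter, at least 5 CPM in 3 libraries, the 6 libraries alone, no peritoneal libraries, no robust moderation and each library left out. Promoter sequences are from RefSeq (GRCm38.p6).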

Additional observations from a re-analysis of the deposited data

How the results depend on the processing

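The number of genes past the threshold depended on the tool and the libraries more than on the scaling. Of the 111 calls, 109 were kept with RLE size factors, 98 with no filter on low counts, 109 with the stricter filter, 109 without robust moderation, 83 without the peritoneal libraries, 71 with limma voom and 47 in a fit to the 6 libraries alone. DESeq2 called 588 genes (202 higher, 386 lower), the 6 libraries alone gave 55 (17 higher, 38 lower), and limma voom gave 47 higher genes. Leaving out 1 library of the comparison gave 50 to 84 genes, 11 to 19 higher and 39 to 65 lower. Leaving receptor segments and markers of other cells out of the count, an alternative chosen after seeing the data, left 49 lower genes. For thymus against spleen in dDC mice, DESeq2 called 424 genes (106 higher, 318 lower), no filter gave 60 (17 higher, 43 lower), limma voom gave 17 higher and 8 lower, and leave-outs gave 4 to 81 (1 to 11 higher, 2 to 70 lower). The difference between dDC mice and controls had 36 genes with DESeq2 (15 higher, 21 lower), 1 higher gene with no filter, and 0 to 21 in leave-outs, all 21 of them lower and 0 higher. The cause of these shifts was not tested, except that fits with fewer libraries have fewer residual degrees of freedom.

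Among named genes the direction turned for Cd8a, which had a log2 fold change of 1.58 with limma voom and -1.05 to 6.23 in leave-outs, and for S1pr1 (-0.015 to 0.21 in leave-outs); neither passed in any fit. No paired analysis was run, because the labels give thymus and spleen libraries no shared replicate numbers. Numbers 1 to 3 follow the order of the labels. Deviations from the tissue mean correlated at 0.044, 0.071 and 0.047 between libraries of the same number and at -0.038 to -0.011 between the others. Whether libraries of the same number share an animal was not tested. Weak genes varied more between libraries: below 5 CPM the median coefficient of variation was 1.29, against 0.55 over all tested genes.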

Other observations

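Some values that belong to no list call drew attention. They were chosen after their values were seen and are given without explanation. Naip5 and Naip6, sensor genes of the NLR family with near-identical copies, were both lower in thymus. Naip5 had 4.6, 3.54 and 6.38 CPM in thymus and 31.6, 26.6 and 59.1 CPM in spleen libraries (adjusted p = 0.00559), and Naip6 had 1.37, 3.33 and 5.57 CPM in thymus and 16.4, 24.9 and 22.4 CPM in spleen libraries (adjusted p = 0.047). The call on Naip6 was lost without any one of the 6 libraries, at adjusted p between 0.053 and 0.167.

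Tbata, a gene of thymic epithelium, was the one marker of another cell type that rose, with 2.3, 4.04 and 7.7 CPM in thymus and 0.171, 0.113 and 0.252 CPM in spleen libraries (log2 fold change 4.65, adjusted p = 0.0298). Its call passed without thymus library 1 and was lost without any of the other 5 libraries, at adjusted p between 0.0681 and 0.13. The epithelial markers Foxn1, Aire and Cldn4 were at 0 in all 3 thymus libraries, and the 15 markers summed to 76.2, 82.6 and 121 CPM in thymus and 70.7, 74.8 and 73 CPM in spleen libraries. Immature T cell genes beside Rag1 were present at low levels: Dntt, which adds bases at receptor joins, had 17.9, 14.5 and 14 CPM in thymus and 0.97, 4 and 0.673 CPM in spleen libraries (adjusted p = 0.589), and the homing receptor gene Ccr9 had 57.9, 66.7 and 58.7 CPM in thymus and 17.6, 46 and 12.7 CPM in spleen libraries (adjusted p = 0.598).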
